A study of Mus musculus with 38 samples.

Results

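Ribosome footprints from DHPG-treated neurons were set against one another in 6 of the 38 libraries of the series, the 3 titled as DHPG pulldown and the 3 titled as DHPG input. All 6 came from primary cortical neurons of the mouse that carried TurboID-PSD95, a biotin ligase joined to elements of the postsynaptic protein PSD95 and expressed from a doxycycline-inducible lentivirus, with several dishes of embryonic neurons combined for each replicate. The neurons were silenced with tetrodotoxin, a sodium channel blocker, and DL-AP5, an NMDA receptor antagonist, for 2 h and were then given 100 µM DHPG for 10 min. Cycloheximide, which halts elongation, was given for 2 min, and biotin was given for 30 min according to the labels (a shorter labelling is described in the study's methods). The input was a part of the monosomes of nuclease-treated lysate and the pulldown was what streptavidin retained of the rest. No untreated neurons and no library without biotin belong to this experiment, so that the ratio of pulldown to input describes which footprints streptavidin retained after DHPG and not what DHPG changed. The descriptions of the inputs place them in the cytosol, whereas their virus field gives PSD95-TurboID. The virus field and the titles were used. Libraries of other experiments serve for comparison. They are TurboID-PSD95 and Pan-TurboID neurons at rest, which had the same cycloheximide and biotin times, no activation and no recorded silencing time. Such neurons were also depolarized with 55 mM KCl for 1 h after 2 h of the same silencing. A further pair of groups with TurboID-PSD95, resting and depolarized in this way, had been given 20 nM siRNA against eIF4G2 for 72 h.

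DHPG is an agonist of the group I metabotropic glutamate receptors, among them mGluR5, which act through Gq proteins, phospholipase C and release of calcium from internal stores. Brief activation of these receptors induces a long-term depression of synapses that depends on local translation in dendrites. PSD95 is the main scaffold of the postsynaptic density of excitatory synapses, where it holds glutamate receptors and their signalling partners. TurboID couples biotin to lysines of nearby proteins, and a ribosome is retained when its own proteins, its nascent chain or something bound to it carries biotin.

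The inputs held 13.1 to 16.0 M counts (M, 1e6) and the pulldowns 20.6 to 33.0 M, of which 6.18 to 7.70 M and 8.41 to 13.4 M lay on the coding sequence (CDS) of the 1 transcript used for each gene. Levels are given as CPM, the counts per 1 M CDS counts of the tested genes after each library's total was multiplied by its TMM factor, the same scale as in the test. Replicates resembled each other closely, with Pearson's r of log2 CPM between 0.987 and 0.992. The sampling chi-square per gene was 1.47 to 1.89 between inputs and 2.84 to 9.05 between pulldowns, the highest values being those of the pairs with pulldown 3, and every pair differed by more than sampling noise. Markers of neurons were present in full (9 of 9 passed the filter on low counts), as were those of excitatory (7 of 7) and inhibitory neurons (6 of 6). Microglia were represented by 1 of 8 markers, Aif1, and endothelial cells by 0 of 4. Of the markers of dividing or progenitor cells 5 of 6 passed, with a summed level of 95.3 to 105 CPM in inputs and 111 to 124 CPM in pulldowns, the proliferation genes Mki67 (1.64) and Top2a (1.38) being higher and Sox2 (-1.68) lower on the log2 scale, and Pax6 did not pass. Among astrocyte markers 6 of 8 passed, with a summed level of 210 to 221 CPM in inputs and 271 to 290 CPM in pulldowns, while Gfap and S100b did not. Among oligodendrocyte lineage markers 6 of 9 passed, at 40.2 to 43.5 CPM against 23.3 to 30.6 CPM, and Sox10, Mog and Mag did not. Their part in the results was not tested. In such bulk libraries fewer cells of a type and less RNA per cell cannot be told apart.

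Dlg4, the gene of PSD95, was the strongest call of the comparison. Its CDS (chr11:70018920-70031833, plus strand, mm10) had 135, 138 and 133 CPM in the inputs and 1350, 1182 and 1152 CPM in the pulldowns. Every pulldown was thus far above every input, with means of 136 ± 2.57 and 1228 ± 107 CPM (SD, n = 3 each) and a log2 fold change of 3.18 ± 0.07 (SE, edgeR quasi-likelihood test, adjusted p = 5.15e-16). The longest transcript of Dlg4 has a CDS of only 822 nt. On the transcript with the most counts, whose CDS of 2166 nt lies in 20 annotated segments, the level rose 10.0-fold, from 365 ± 11.7 to 3666 ± 354 CPM. All 19 segments with at least 30 input counts were higher in the pulldowns, by 4.23-fold to 35.2-fold with a median of 10.7-fold. The bait carries the coding sequence of rat PSD95 and UTRs of PSD95, so that footprints on the construct and on the endogenous gene cannot be told apart. The annotated 5′ UTR of Dlg4, 41 nt long, went the other way, from 2.84 ± 0.21 to 0.943 ± 0.213 CPM (log2 fold change -1.56 ± 0.38, edgeR, adjusted p = 2.89e-04). That is close to the median of -1.51 over all 5′ UTRs tested, which are described further on.

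Across the genes, small spread between replicates let most differences pass the test. Of 12273 genes tested, 4967 (40.5%) were higher and 4821 (39.3%) lower in the pulldown, 79.8% in all, at a false discovery rate of 0.05. The median standard error of a log2 fold change was 0.12, and the smallest change that passed was 0.12 on the log2 scale. Changes under 1.2-fold made up 289 of the calls, 1814 lay between 1.2-fold and 1.5-fold, 2887 between 1.5-fold and 2-fold and 4626 between 2-fold and 4-fold. Beyond 4-fold were 67 genes that rose and 105 that fell. Against a threshold of 1.5-fold, edgeR's glmTreat called 2912 genes higher (23.7%) and 3326 lower (27.1%), 50.8% in all. The likelihood ratio test of edgeR, which the study names, called 5023 higher (40.9%) and 4883 lower (39.8%), or 80.7%. With 79.8% of genes called, a call on its own sets no gene apart, and sizes are given throughout. In 80.9% of genes the 3 inputs and the 3 pulldowns did not overlap.

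The genes that followed Dlg4 by p-value have CDSs of 3600 to 15543 nt. Map1a, a microtubule-associated protein of dendrites, went from 1509.6, 1470.0 and 1457 CPM to 6329, 5893 and 6444 CPM (log2 fold change 2.07 ± 0.05). Dync1h1, the heavy chain of cytoplasmic dynein, had 1685, 1684 and 1653 CPM in inputs and 5384, 5340.4 and 5099.6 CPM in pulldowns, a change of 1.66 ± 0.05. Neither gene's groups came near each other. Kmt2a, a histone H3 methyltransferase, stood at 64.3 ± 2.40 CPM and 370.2 ± 34.1 CPM (2.52 ± 0.08). Wdfy3, a scaffold of selective autophagy, rose by 2.0 ± 0.06 on the log2 scale, and Ap3d1, the delta subunit of the AP-3 adaptor complex, by 1.8 ± 0.05. Map1b, a target of FMRP and the most abundant of these genes, went from 11894 ± 67.2 to 29029 ± 917 CPM (1.29 ± 0.04). Ubr4, a giant ubiquitin ligase, rose by 1.65 ± 0.05 and Chd6, a chromatin remodeller, by 2.35 ± 0.07. Acaca, the cytosolic acetyl-CoA carboxylase, is described with the other carboxylases. All adjusted p-values of these genes were 4.23e-14 or lower.

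The 10 genes that fell with the smallest p-values have, with 1 exception, CDSs of 2124 nt or less. The histone H4 gene Hist1h4a had 167, 161 and 166 CPM in the inputs and 34.3, 36.8 and 36.6 CPM in the pulldowns, a log2 fold change of -2.20 ± 0.07. Cfl1, the actin-severing protein cofilin, changed by -1.78 ± 0.06, the ATP synthase subunit Atp5g3 by -1.92 ± 0.07, and the 14-3-3 protein Ywhae by -1.79 ± 0.06. Ncl, nucleolin, went from 384, 399 and 412 CPM to 88.1, 104.8 and 89.9 CPM, a change of -2.08 ± 0.07. The groups did not overlap in any of these genes. The co-chaperone Stip1 changed by -2.02 ± 0.07 and the lysosomal protein precursor Psap by -1.53 ± 0.05. The exception in length is Map2 (chr1:66380512-66439007, plus strand), the classical marker of dendrites, with a CDS of 5487 nt. It stood at 3202, 3283 and 3298 CPM in inputs and at 1061, 1160.1 and 1142 CPM in pulldowns, a log2 fold change of -1.54 ± 0.05.

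**Figure D1:**
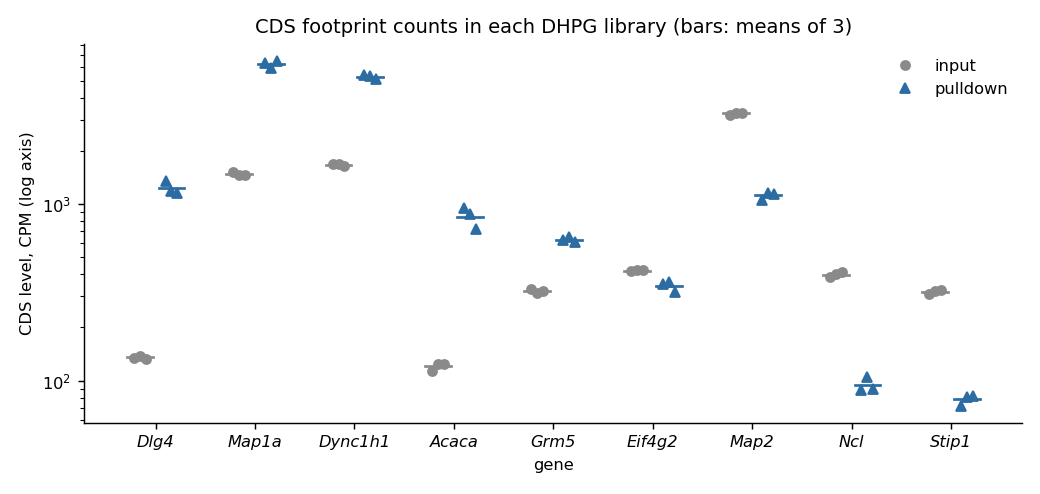
CDS level in CPM (log axis) in each of the 3 DHPG inputs (grey circles) and 3 DHPG pulldowns (blue triangles) for 9 genes, with bars at the means. Dlg4, Map1a, Dync1h1, Acaca and Grm5 lie above their inputs in every pulldown and Eif4g2, Map2, Ncl and Stip1 below.

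Of the receptors that DHPG activates, mGluR5 was higher in the pulldown. Its gene Grm5 (chr7:87602544-88130869, plus strand), had 329, 314 and 322 CPM in the inputs and 624, 647 and 609.7 CPM in the pulldowns. The groups were well separated, with a log2 fold change of 0.96 ± 0.06 (edgeR, adjusted p = 2.08e-11). Eif4g2, the initiation factor that the study knocked down in another experiment, showed a small change in the other direction. Its inputs lay at 415, 423 and 423 CPM and its pulldowns at 353, 362 and 319 CPM, which do not overlap, and the change of -0.29 ± 0.06 passed at an adjusted p of 2.98e-04 (edgeR). With CDS length taken into account, as described further on, its change was -0.85 ± 0.06.

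CDS length went with the direction of the change over the whole range of lengths. The 394 genes with a CDS of up to 300 nt had a median log2 fold change of -1.52, with 353 lower and 12 higher. The medians then climbed through -1.37, -0.67, 0.08, 0.40, 0.75 and 0.98 for the classes up to 600, 1000, 1500, 2500, 4000 and 6000 nt. The 359 genes beyond 6000 nt had a median of 1.16, with 303 higher and 27 lower. Each of the 3 same-numbered pairs gave nearly the same medians, from -1.62 to -1.39 in the shortest class and from 1.11 to 1.21 in the longest. The spread within a class was wide all the same, the quartiles of the class that ends at 1500 nt being -0.64 and 0.61.

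**Figure D2:**
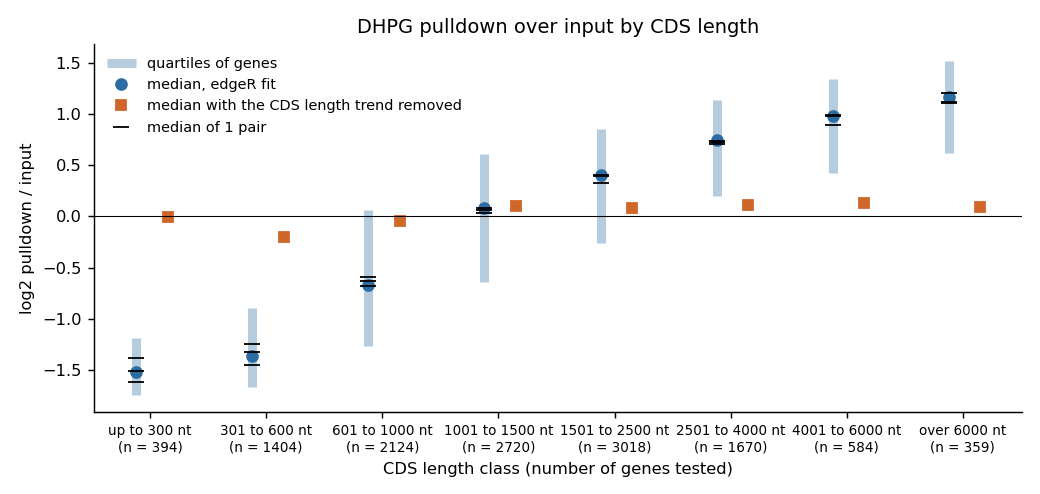
Median log2 ratio of pulldown to input by class of CDS length (blue circles, with bars for the quartiles of genes and black dashes for the medians of single pairs), and the medians after the length trend was removed (orange squares). The median rises from -1.52 in the shortest class to 1.16 in the longest, and the adjusted medians lie between -0.20 and 0.13.

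Within transcripts, the ratio depended on where on the CDS a footprint lay. Summed over genes, as shares of all CDS counts without TMM factors (which would add 0.21), and counted from the start codon, segments in the first 150 nt had a mean log2 ratio of -1.76 ± 0.18 (SD over 3 pairs), and those from there to 300 nt -1.53 ± 0.04. The ratio then rose to -1.0 in the segments up to 450 nt, -0.37 in those up to 600 nt and 0.11 in those up to 900 nt. Further along the rise was slower, from 0.45 up to 1200 nt through 0.75 between 2000 and 3000 nt to 1.23 beyond 6000 nt. In all classes of CDS length beyond 600 nt the ratio rose past the first 300 nt. In CDSs over 600 and up to 1500 nt long the first 150 nt stood at -1.79 and the stretch from 600 to 900 nt at 0.23. In CDSs over 1500 and up to 3000 nt long the same stretches stood at -1.69 and -0.05. Between 900 and 2000 nt the ratio at an equal distance was lower in longer CDSs. From 900 to 1200 nt it was 0.55 and 0.40 in these classes, 0.29 in CDSs over 3000 and up to 6000 nt and 0.10 in longer ones. Nearer the start and further along this order did not hold. In the first 150 nt the shortest of these classes stood lowest. From 2000 to 3000 nt the longest class stood highest, at 0.81 against 0.77 and 0.71.

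**Figure D3:**
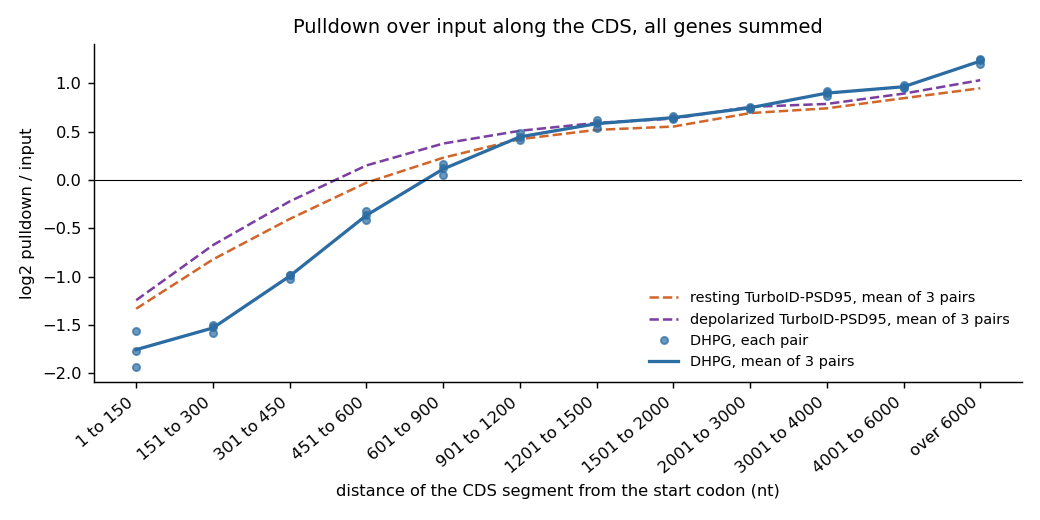
Log2 ratio of pulldown to input counts, summed over genes, against the distance of the CDS segment from the start codon. The 3 DHPG pairs (points, line for their mean) run from -1.76 in the first 150 nt to 1.23 beyond 6000 nt, and the dashed lines show the mean of 3 pairs for TurboID-PSD95 in resting and in depolarized neurons.

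The same held gene by gene, on the TMM scale. In 5063 genes with at least 30 input counts in both zones, the median log2 ratio was -1.37 within the first 300 nt and 1.04 beyond 900 nt. The ratio was higher beyond 900 nt in 4828 of them (95.4%), and only 178 genes were above 0 in the first 300 nt. Map1a, for example, had -1.40 in the first zone and 2.11 in the second, Dync1h1 -1.78 and 1.79, and Eif4g2, nearly level over its whole CDS, -1.89 and 0.63. Actb, the beta-actin gene, had -1.76 and 0.85 while its whole CDS fell by 0.96 on the log2 scale. A smaller set stayed low to the end, with 310 genes (6.12%) below -1 beyond 900 nt. Map2 belongs to it with -1.31 and -1.55, as do Ncl (-2.20 and -2.15), Stip1 (-1.99 and -2.07) and Mapt, the gene of tau (-1.76 and -1.91).

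Per library, the share of CDS counts that lay in the last part of the CDS, beyond its middle, was taken as the median over 8565 genes. It was 44.3%, 44.7% and 44.8% in the inputs and 65.0%, 64.4% and 63.6% in the pulldowns. The groups did not overlap, and the exact two-sided permutation test gave p = 0.1, the smallest that 3 against 3 allows. Each gene's change was also predicted from a profile over all CDS segments and from where its footprints lie. Prediction and measurement had a Spearman correlation of 0.648 across 12273 genes, as a description, since genes are not independent replicates. Profile and positions came from the same 6 libraries as the measured change, so that some correlation is built in. With position taken into account the correlation of the fold change with CDS length, 0.619 before, was 0.048. Long CDSs hold the distant footprints, so that this fall does not tell length and position apart.

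The profile was steeper here than in resting neurons with the same bait. The ratio beyond 900 nt less that within 300 nt, over all genes, was 2.49, 2.35 and 2.19 in the 3 DHPG pairs. It was 1.69, 1.60 and 1.91 in resting TurboID-PSD95 neurons, which does not overlap with DHPG (means 2.34 ± 0.15 and 1.73 ± 0.16, exact permutation p = 0.1, the smallest possible). In depolarized TurboID-PSD95 neurons it was 2.22, 1.05 and 1.85, a range that reaches into that of DHPG (1.71 ± 0.60, exact p = 0.2). The depolarized neurons with knockdown of eIF4G2 gave 2.23 and 2.29, within the DHPG range, and the resting ones 1.42 and 1.58. Pan-TurboID, the ligase without localization, gave 1.47 ± 0.06 at rest and 1.49 ± 0.14 after depolarization. A DHPG treatment and an experiment of its own cannot be told apart in these differences, and against rest silencing may differ as well.

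Once the lowess trend of each library over CDS length had been taken out, 4233 genes were higher (34.5%) and 4035 lower (32.9%), 67.4% in all, and the median absolute log2 fold change went from 0.81 to 0.52. Dlg4 led again at 3.72 ± 0.07. Snhg11, a host gene of small nucleolar RNAs for which the annotation lists a CDS of 264 nt, went from 4.12, 3.62 and 4.65 CPM to 49.8, 41.8 and 50.2 CPM, a change of 4.97 ± 0.15 beyond the trend (3.51 ± 0.15 without). It reached the mean log2 CPM of 4 asked of named genes only through its pulldowns. Nmnat2, an NAD-synthesizing enzyme needed by axons, was raised by 1.77 ± 0.06 beyond the trend with a CDS of 840 nt. Its levels went from 222 ± 7.75 to 531 ± 26.0 CPM, a change of 1.26 ± 0.06 without the adjustment. Ap2m1, a subunit of the clathrin adaptor that takes up glutamate receptors, was raised by 1.45 ± 0.06. Gm21972 (3.13 ± 0.10) and Gm37013 (2.23 ± 0.08) passed as well, but their CDSs overlap those of other genes and their counts are uncertain. Among the genes that fell, Map2 was at -2.45 ± 0.06. Rtn4, a membrane protein of the endoplasmic reticulum known as Nogo, was at -2.28 ± 0.06, Ncl at -2.46 ± 0.07, Stip1 at -2.24 ± 0.07 and Chgb, a granin of secretory granules, at -2.14 ± 0.07. The adjusted p-values of these genes, from edgeR, lay at 2.23e-13 or below.

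Groups of genes were read against the background of 40.5% higher and 39.3% lower, a median log2 fold change of 0.05 over all genes, and 34.5%, 32.9% and 0.03 with length taken into account. Among proteins of the postsynaptic density other than PSD95, 19 of 30 rose and 7 fell, with a median of 0.66. Dlgap1, which links PSD95 to Shank, went from 66.3 ± 2.11 to 176 ± 8.67 CPM (1.41 ± 0.07). Shank2 rose by 1.21 ± 0.07, the kinase Camk2a by 1.11 ± 0.06 and the exchange factor Kalrn by 1.39 ± 0.07. These 4 were each also called with length taken into account, where the list as a whole stood at 12 higher, 10 lower and a median of 0.05. Homer1, which ties group I receptors to the scaffold, was the lowest of the list at -1.56.

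Most glutamate receptor genes rose. Of 18 ionotropic subunits and TARPs, the auxiliary proteins of AMPA receptors, 17 rose and 0 fell, with a median of 0.88. Gria2, the subunit that sets calcium permeability, went from 513, 546 and 539 CPM to 1339, 1331 and 1058 CPM (1.22 ± 0.07). Gria1 rose by 1.03 ± 0.06, Gria3 by 1.23 ± 0.09 and Gria4 by 1.06 ± 0.08. With length taken into account 13 rose and 3 fell, and the median was 0.58. The metabotropic receptors outside group I gave 4 higher and 1 lower of 5, with Grm3 at 1.0 ± 0.07, Grm4 at 0.99 ± 0.14, Grm8 at 0.98 ± 0.12 and Grm2 at 0.52 ± 0.08. Once length was taken into account 4 were higher and 0 lower. Grm7, the lower one at -0.59, was then higher at 0.38, and Grm2 was not called (-0.01 ± 0.08).

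In the signalling chain of the group I receptors, 19 of 25 genes rose and 5 fell, with a median of 0.82. Ptk2b, the calcium-dependent tyrosine kinase Pyk2, went from 35.8 ± 0.42 to 113 ± 2.47 CPM (1.66 ± 0.08), and Mtor, the kinase that couples growth signals to translation, from 167 ± 3.17 to 404 ± 12 CPM (1.28 ± 0.06). Pik3r1, the regulatory subunit of PI3 kinase, fell from 228 ± 13 to 83.8 ± 10.7 CPM (-1.44 ± 0.08). With length taken into account 12 rose and 5 fell, the median was 0.25, and Ptk2b remained called at 1.04 ± 0.08, Grm5 at 0.25 ± 0.06 and Mtor at 0.25 ± 0.06.

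Proteins linked to mGluR-dependent depression and to FMRP split in both directions, 6 of 11 higher and 5 lower. Cyfip1 and Cyfip2, partners of FMRP that also regulate actin, rose by 1.57 ± 0.08 and 1.53 ± 0.05. Map1b belongs to this list too. App, the amyloid precursor, went from 2543 ± 16.5 to 1103 ± 141 CPM (-1.2 ± 0.07), and Fmr1 itself changed by -1.38. Arc, whose rapid translation is a textbook feature of this form of plasticity, changed by -0.62. The 6 and 5 counts were the same with length taken into account. Of 11 mRNAs known from dendrites 4 rose and 7 fell, Camk2a and Ddn, the gene of dendrin, on the higher side (1.11 ± 0.06 and 1.14 ± 0.07) and Map2 and Actb on the lower, against 3 and 5 after removal of the length trend.

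The cytoskeleton showed the widest range within a family. Of 20 microtubule-associated proteins 7 rose and 11 fell (5 and 13 after removal of the length trend), between 2.07 for Map1a and -2.01 for Stmn1, the tubulin-sequestering protein stathmin. Mapt fell from 2530.1 ± 21.2 to 663 ± 76.1 CPM (-1.93 ± 0.07). Tubulins rose, 12 of 13 higher and 0 lower, with changes from 0.11 (not called) to 1.51 and a median of 0.61, among them Tubb3 (3359, 3376 and 3232 CPM against 5852, 5629 and 5672 CPM, 0.78 ± 0.04), Tubb2a (0.82 ± 0.05), Tubb6 (0.84 ± 0.06) and Tuba1b (0.68 ± 0.05, with an overlapping CDS), and 11 of 13 did so with length taken into account. Tubulin genes are near-identical in sequence and their counts are uncertain singly. Actin and its regulators went down, 16 of 23 lower and 4 higher, with the profilins Pfn1 (-1.61 ± 0.09) and Pfn2 (-1.56 ± 0.08) and the Arp2/3 subunit Arpc4 (-1.44 ± 0.07) beside Cfl1. After removal of the length trend 15 were lower and 3 higher, the median went from -0.76 to -0.33, and Arpc4 and Cfl1 stood at -0.35 and -0.68. Motors gave 19 higher and 8 lower of 30, the heavy chains Dync1h1 and Myh10 (1.23 ± 0.06) rising and the small dynein and dynactin subunits Dynll1 (-1.83 ± 0.07) and Dctn3 (-1.61 ± 0.07) falling. With length taken into account 11 motors were higher and 13 lower, and their median went from 0.46 to -0.11. In the list of spectrins, ankyrins and linkers 8 of 12 rose, but with length taken into account 1 rose and 9 fell. There Sptan1, the alpha spectrin of neurons, was at -0.67 ± 0.05 before and -1.69 ± 0.06 after, and Ank2 turned from 0.55 ± 0.05 to -0.62 ± 0.05.

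Most channel genes and most of the longest genes rose. Of 22 sodium and calcium channel genes 15 rose and 3 fell (median 1.19), with Cacna1a, the pore of P/Q-type channels, going from 102 ± 4.04 to 345 ± 6.0 CPM (1.75 ± 0.06), Cacna1e at 1.67 ± 0.07, Cacna1b at 1.54 ± 0.06 and Scn8a at 1.53 ± 0.07. With length taken into account the counts were 15 and 4 and the median 0.50. All 12 giant ubiquitin ligases rose (median 1.27), including Mycbp2 (1.73 ± 0.06), Herc2 (1.60 ± 0.06) and Huwe1 (1.55 ± 0.06), and 6 of them did so beyond the length trend, where the median was 0.14. Of 23 large regulators of chromatin and transcription 18 rose, Trrap by 1.72 ± 0.06 and the splicing factor Prpf8 by 1.56 ± 0.06, against 10 higher and 9 lower with length taken into account.

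Presynaptic and adhesion genes were mixed. Active zone scaffolds gave 6 higher and 5 lower of 12, and 2 and 8 with length taken into account. Unc13a, which primes vesicles, rose by 0.91 ± 0.05 (0.02 ± 0.06 beyond the trend), Bsn, the gene of bassoon, turned from 0.65 ± 0.06 to -0.51 ± 0.07, and Erc1 fell by 1.36. Vesicle and SNARE proteins gave 12 higher and 9 lower of 23 (12 and 8 after removal of the length trend), with the transporter-like protein Sv2a at 1.18 ± 0.05 and Cplx1, a complexin that binds the SNARE complex, at -1.79 ± 0.09. Of 21 neurexins, neuroligins and other adhesion genes 15 rose and 6 fell, against 6 and 10 with length taken into account, and the median went from 0.37 to -0.17. Nlgn3 rose by 1.15 ± 0.06 and by 0.64 ± 0.06 beyond the trend, while Nrxn2 (0.90 ± 0.06, with an overlapping CDS) was not called beyond it (0.02 ± 0.06).

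Ribosomal proteins and most initiation factors were lower in the pulldown. Of 77 cytosolic ribosomal proteins tested 74 fell and 2 rose, with a median of -1.63 and a summed level that went from 6897 to 6983 CPM in inputs to 2731 to 3039 CPM in pulldowns. Rpl32 had 93.6, 88.8 and 88.9 CPM against 21.5, 25.7 and 22.9 CPM (-1.95 ± 0.09). Rpl37 changed by -1.78 ± 0.07, Rps9 by -1.77 ± 0.08 and Rps16 by -1.75 ± 0.07. Their median CDS is 432 nt, and with length taken into account 51 fell and 3 rose with a median of -0.45. Initiation factors gave 27 lower and 9 higher of 39 (23 and 8 after removal of the length trend), Eif2s2, a subunit of eIF2, at -1.90 ± 0.10, Eif5 at -1.74 ± 0.08 and Eif4b at -1.43 ± 0.07, against the long Eif5b at 1.58 ± 0.09. Among elongation and termination factors 6 of 10 fell and 3 rose (7 and 3 after its removal), with Eef2, the translocation factor, at 0.64 ± 0.05 and Eif5a at -1.74 ± 0.08. Aminoacyl-tRNA synthetases were the part of the machinery in which more genes rose than fell, 13 higher and 6 lower of 20, with Vars at 1.47 ± 0.07, Lars at 1.22 ± 0.07, Eprs at 1.22 ± 0.06 and Mars at 1.17 ± 0.06. When length was taken into account 8 were higher and 5 lower, and the median went from 0.38 to -0.04.

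RNA-binding proteins of transport granules fell irrespective of length. Of 25 tested 22 fell and 2 rose with a median of -0.79, and 23 fell and 1 rose with a median of -0.96 once length was taken into account. Hnrnpa2b1, which carries dendritic mRNAs, went from 353 ± 13 to 96.6 ± 10.8 CPM (-1.87 ± 0.08). Caprin1, a granule protein, changed by -1.43 ± 0.07, and Tardbp, the gene of TDP-43, by -1.75 ± 0.09 (its CDS overlaps that of another gene). Igf2bp1 and Mov10 had too few counts for the test.

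Most mitochondrially encoded proteins were higher, and most nuclear-encoded proteins of mitochondria lower before length was taken into account. Of the 13 proteins encoded in mitochondria 11 rose and 1 fell, with a median of 1.21, and all 13 rose with length taken into account. mt-Co1, a subunit of cytochrome c oxidase, had 1937, 1815 and 1996 CPM in inputs and 5987, 5506 and 3928 CPM in pulldowns, the third pulldown being the lowest here and in mt-Cytb (1.28 ± 0.12), mt-Nd1 (1.22 ± 0.13) and mt-Atp6 (1.19 ± 0.11, with an overlapping CDS). Of 73 nuclear-encoded subunits of oxidative phosphorylation 60 fell and 11 rose (median -1.56), with Cox4i1 at 725 ± 19.8 against 269 ± 1.22 CPM (-1.43 ± 0.06), Ndufa4 at -1.79 ± 0.07 and Cox6c at -1.9 ± 0.07. Of 78 mitochondrial ribosomal proteins 61 fell and 11 rose, for example Mrpl20 at -1.77 ± 0.10, Mrps14 at -1.82 ± 0.11 and Mrpl15 at -1.66 ± 0.09. With length taken into account the subunits of oxidative phosphorylation gave 38 lower and 16 higher with a median of -0.27, and the mitochondrial ribosomal proteins 34 lower and 21 higher with a median of -0.21.

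Histones, proteasome subunits, chaperones of the endoplasmic reticulum and immediate early genes each had more members that fell than rose. All 66 replication-dependent histones tested fell (median -1.79), 57 of them also with length taken into account. Histone genes share near-identical sequence and are uncertain singly. Of 32 proteasome subunits 18 fell and 5 rose, with Psmd8 at -1.46 ± 0.07, Psmd13 at -1.44 ± 0.07, Psma7 at -1.15 ± 0.06 and Psmb1 at -1.08 ± 0.06. Adjusted for length, 17 fell and 11 rose, and the median went from -0.42 to -0.18. Of 27 chaperones and translocon proteins of the endoplasmic reticulum 19 fell and 5 rose. Hspa5, the luminal Hsp70, went from 1117, 1148 and 1146 CPM to 416, 459 and 445 CPM (-1.37 ± 0.06) and the disulfide isomerases Pdia3 and P4hb by -1.71 ± 0.07 and -1.67 ± 0.07, while Rrbp1, a ribosome-binding protein of the reticulum membrane, rose by 1.99 ± 0.07. The same adjustment left 14 of this list lower and 8 higher, and the median went from -0.64 to -0.17. Cytosolic chaperones gave 9 lower and 7 higher of 19, with Dnaja1 at -2.10 ± 0.09, St13 at -1.68 ± 0.08 and the chaperonin subunit Tcp1 at 1.01 ± 0.06, and after removal of the length trend 12 were lower and 3 higher, with a median of -0.30 in place of -0.08. Among 20 immediate early genes 13 fell and 1 rose (11 and 3 after removal of the length trend), the AP-1 factors Fosl2 (-1.56 ± 0.08), Junb (-1.72 ± 0.12) and Jun (-1.40 ± 0.09) and the zinc finger factor Egr1 (83.3, 88.4 and 73.4 CPM against 29.0, 29.3 and 32.8 CPM, -1.42 ± 0.09) among them.

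**Figure D4:**
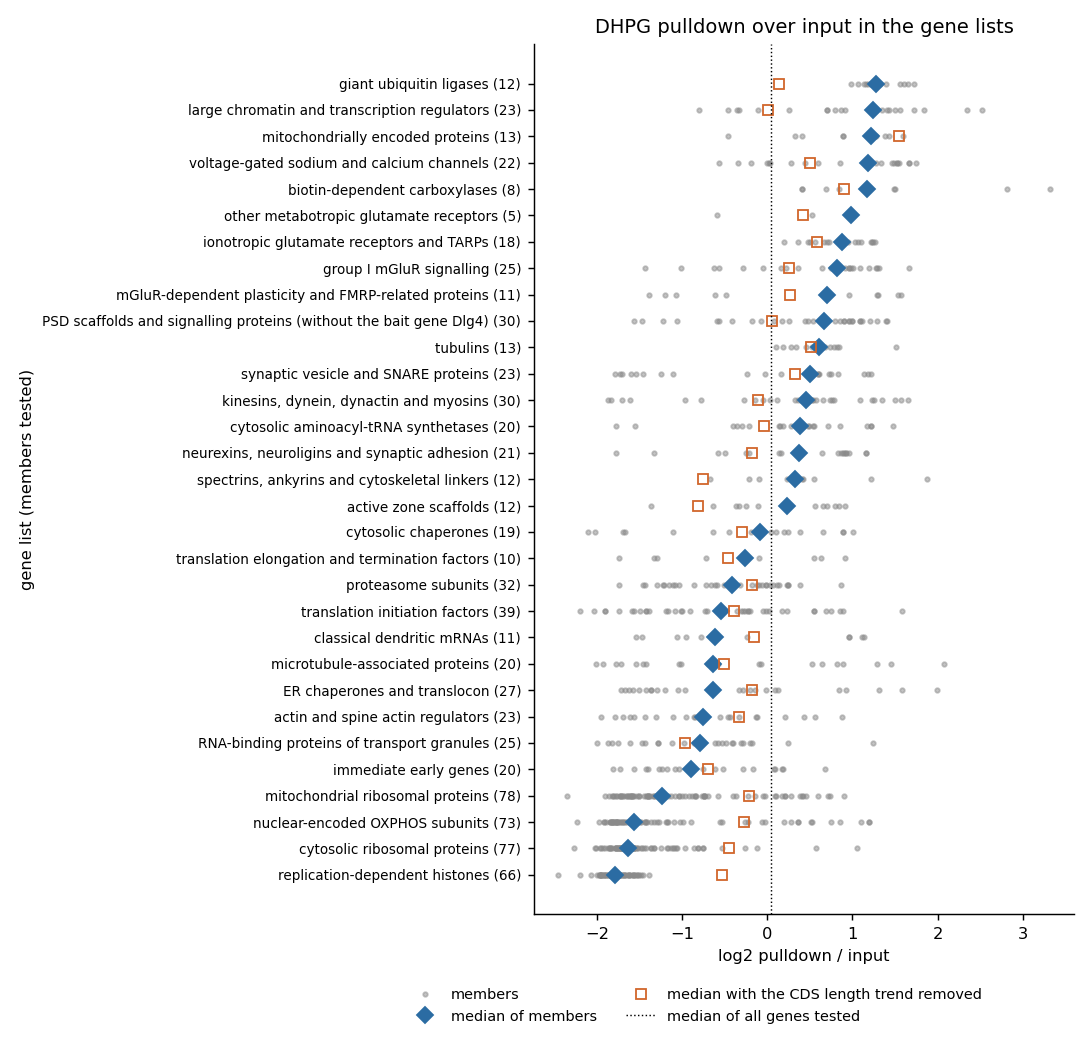
Log2 ratio of pulldown to input for the members of each gene list (grey points), their median (blue diamonds), the median with the length trend removed (open orange squares) and the median of all genes (dotted line at 0.05). Histones, ribosomal proteins and respiratory subunits lie lowest and giant ubiquitin ligases highest before length is taken into account.

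Biotin-dependent carboxylases carry biotin on a lysine of their own, attached inside the cell by holocarboxylase synthetase, and bind streptavidin without any TurboID. The codon of that lysine can be found through the motif of alanine or valine, methionine, lysine and methionine, and it is printed here because the ratio was set against its place. The stretches of 27 bases below were read 5′ to 3′ from the GENCODE transcripts used for mm10, with the lysine codon in capitals.
Acaca: attgaggtaatgAAGatggtgatgact
Acacb: atggaggtgatgAAGatgatcatgacc
Pcx: ctcagcgccatgAAGatggagactgtg
Pcca: attgaagctatgAAAatgcagaacagt
The codon is number 785 in Acaca (chr11:84260630-84260632, plus strand, CDS exon 18) and number 919 in Acacb (chr5:114207242-114207244, plus strand, CDS exon 18). It is number 1145 in Pcx (chr19:4621181-4621183, plus strand, CDS exon 20) and number 690 in Pcca (chr14:122887086-122887088, plus strand, CDS exon 23). In both acetyl-CoA carboxylases it lies in the first part of the CDS, at 33.4% and 37.5% of its length, with 4683 and 4590 nt to follow. In Pcx, pyruvate carboxylase, and Pcca, the alpha subunit of propionyl-CoA carboxylase, it lies at 97.0% and 95.1%, with 105 nt to follow in each. In the 768 nt of Mccc1 that were used here the motif was not found.

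Of the 7 genes of this list other than Acacb 6 rose and 0 fell, with a median of 0.85, and 0.77 with length taken into account. The list also holds Pccb and the synthetase Hlcs, so that this count is not of biotin carriers alone. Among the 6 that rose, the attachment codon was found in Acaca, Pcx and Pcca. Acaca had 113, 125 and 125 CPM in the inputs and 947, 876 and 724 CPM in the pulldowns (2.81 ± 0.09, adjusted p = 3.81e-14). Pcx went from 48.8 ± 2.85 to 137 ± 8.04 CPM (1.48 ± 0.08) and Pcca from 26.5 ± 1.72 to 74.9 ± 6.84 CPM (1.5 ± 0.10). Pccb, the subunit that carries no biotin, rose by 0.85 ± 0.07. Acacb, the mitochondrial form, is scarcely translated in these cells, with 0.485, 0.434 and 0 CPM in inputs against 3.35, 3.35 and 3.26 CPM in pulldowns, and it passed the filter on low counts through the pulldowns. Leaving it out of the count was chosen after its values were seen. Mccc1 was the gene not called (0.41 ± 0.25), and Hlcs, the holocarboxylase synthetase, changed by 0.41 as well and was called.

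Along Acaca the ratio changed in steps. Up to 606 nt the pulldowns held 0.346 of the input level (32.8 ± 3.38 against 11.3 ± 1.66 CPM). Between 607 and 2481 nt, which includes the attachment codon at 2353 nt, they held 2.47 times that level (33.1 ± 5.10 against 81.8 ± 5.95 CPM). In the segment that contains the codon, from 2347 to 2481 nt, the fold was 1.83, in the next, up to 2628 nt, 4.19, and in the one after it, up to 2817 nt, 20.0, with 56, 36 and 34 input counts in these 3 segments. From 2818 nt to the end the fold was 13.9 (51.6 ± 4.26 against 717 ± 101 CPM), but it was not level there. Segments with at least 30 input counts had folds of 19.2 to 26.1 up to 3569 nt and of 7.61 to 11.8 from 3594 nt on. Pcx and Pcca, where 105 nt of CDS follow the codon, stood at 0.909-fold and 1.30-fold up to about 600 nt and at 3.46-fold and 3.91-fold from there on. The difference in log2 ratio between the Acaca segments that start before the codon and those at least 300 nt past it was 3.23, 3.16 and 3.47 in the DHPG pairs. It was 2.36 to 4.22 in resting and 2.91 to 3.51 in depolarized TurboID-PSD95 neurons, and 1.61 to 3.22 and 1.97 to 3.09 with Pan-TurboID, and is no measure of the codon alone, since the stretch before it includes the first 606 nt. The profile of all genes rose by 1.47 to 2.34 in the mean between the first 300 nt and the stretch beyond 900 nt in the same comparisons. That this profile was drawn for Acaca was decided after its values were seen.

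**Figure D5:**
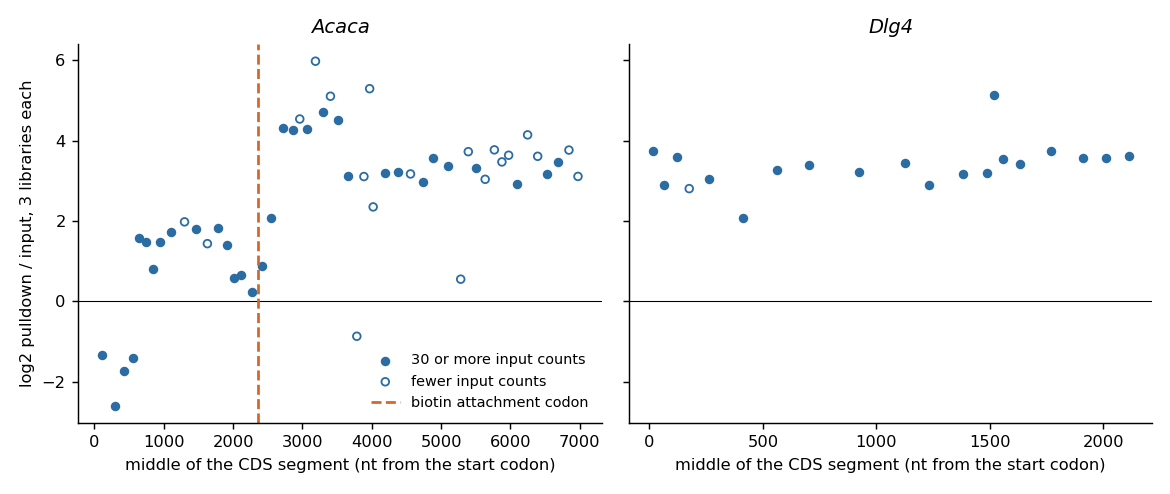
Log2 ratio of pulldown to input, from the mean levels of 3 libraries each, for each CDS segment of Acaca and of Dlg4 against its distance from the start codon (filled points, at least 30 input counts). In Acaca the ratio is below 0 up to 606 nt and rises again past the biotin attachment codon (dashed line), and in Dlg4 all segments are above 0, from the first one on.

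Footprints also shifted between the regions of the transcript. The 5′ UTR held 16.7%, 15.6% and 15.6% of the counts of the transcripts used in the inputs and 4.55%, 5.06% and 6.23% in the pulldowns. As 5′ ends were counted without an offset, ribosomes of the first codons count to the 5′ UTR here and in the tests per gene. A loss of footprints at the start of the CDS and in the 5′ UTR itself cannot be told apart in these values. The CDS held 81.9% ± 0.65 and 89.8% ± 0.90, and the 3′ UTR 2.18% ± 0.06 and 4.92% ± 0.59. None of these groups overlapped and each exact permutation test gave p = 0.1, the smallest possible. In genes with at least 100 CDS counts in every library the 3′ UTR difference was much smaller, 1.19% ± 0.02 against 1.72% ± 0.03.

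Tested per gene on the scale of the CDS counts, 8081 of 8517 5′ UTRs fell (94.9%) and 28 rose (0.329%), 95.2% in all, with a median log2 fold change of -1.51. Uqcr10, a subunit of complex III, had 87.9, 81.2 and 73.7 CPM on its 5′ UTR in inputs and 14.2, 14.1 and 19.6 CPM in pulldowns (-2.33 ± 0.19), and Tomm6, a subunit of the mitochondrial import pore, changed by -2.34 ± 0.19. The 5′ UTR of Rabggtb, a subunit of Rab geranylgeranyl transferase, rose from 4.97, 5.06 and 5.84 CPM to 89.0, 74.2 and 37.5 CPM (3.65 ± 0.26) over a CDS that fell by 1.48. Those of Lime1, whose CDS overlaps that of another gene (2.63 ± 0.37), and Tmem35b (2.18 ± 0.31) rose as well, the latter with 66.9% of its length on annotated CDS. Both had few input counts, at 0.72 to 0.75 CPM and 0.90 to 1.88 CPM, and passed the filter on low counts through the pulldowns. With the library sizes of the 5′ UTR counts themselves, 458 rose and 144 fell, so that the general drop is measured relative to the CDS.

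In 3′ UTRs, 1194 of 2085 rose (57.3%) and 286 fell (13.7%), 71.0% in all, with a median of 0.90. In part these regions are coding in other transcripts, and among the 1259 without annotated CDS 721 rose and 112 fell, with a median of 0.97. Ankrd11, a chromatin regulator, rose from 72.2, 72.6 and 77.0 CPM to 729, 696 and 690.2 CPM (3.25 ± 0.06), on a stretch of which 95.5% is annotated CDS. Gramd1a (1.99 ± 0.07) and Gak (1.67 ± 0.06) had 61.2% and 84.5% of theirs on CDS. Wdr89, with no CDS on the region, fell by 1.68 on the log2 scale, and Rpl10a and Gm45234 by 1.44 and 1.63, with 66.0% and 58.0% on CDS. With the library sizes of the region itself the counts were 525 higher and 595 lower.

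Whether the ratio of pulldown to input differed from that in the KCl experiment, with the same bait, was tested as an interaction over 12 libraries each. Against resting TurboID-PSD95 neurons, 336 of 12803 genes (2.62%) had a higher ratio under DHPG and 540 (4.22%) a lower one, 6.84% in all. These counts rested on all replicates, since leaving out the libraries numbered 1, 2 or 3 of all 4 groups left 27, 51 or 96 higher and 9, 22 or 123 lower. With the length trend removed they were 138 and 264, and with the replicate number as a block 706 and 1108. Mast1, a microtubule-associated kinase, rose by 1.56 ± 0.07 here and had 0.27 ± 0.14 at rest (difference 1.29 ± 0.14, edgeR, adjusted p = 4.93e-04). The nucleoporin Nup153 (0.77 against -0.49) and Amer3 (0.66 against -0.49) followed. Ncl fell further here (-2.08 against -0.87), as did Bzw1 (-1.64 against -0.47) and Ywhae (-1.79 against -0.75). Map2 differed by -0.80 ± 0.14 (adjusted p = 0.0041), Map1b by 0.71 ± 0.14 (adjusted p = 0.00781) and Fmr1 by -0.78 ± 0.23 (adjusted p = 0.0482).

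Grm5 did not pass. It had 0.96 here and 0.88 at rest, a difference of 0.08 ± 0.12 (adjusted p = 0.79, edgeR). Dlg4 differed by -0.56 ± 0.36, Acaca by -0.04 ± 0.53 and Camk2a by 0.02 ± 0.22. Of the 25 genes of group I receptor signalling 0 had a higher and 1 a lower ratio than at rest, and of the 11 linked to mGluR-dependent plasticity 1 and 2. Against depolarized TurboID-PSD95 neurons, whose replicates spread more, 2 genes of 12842 had a higher ratio (0.0156%) and 1 a lower one (0.00779%), 0.0234% in all. They were Irs2, an adaptor of insulin receptors (1.35 against -0.28), the nucleoporin Pom121 (1.56 against 0.05) and Msantd4 (-1.83 against -0.11), and none of them passed without any one replicate. The likelihood ratio test of edgeR called 148 higher and 342 lower, and the fit with the replicate number as a block 160 and 434. Homer1 had the widest gap among the genes of interest, -1.56 here against 1.72 after KCl, and missed the threshold (difference -3.26 ± 0.61, adjusted p = 0.066). Treatment and experiment cannot be told apart in any of these differences, and against rest silencing may differ as well.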

How the data were processed

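Groups and replicate numbers of all 38 libraries came from GEO's titles, and 6 libraries were used for the main comparison. Per their methods the authors aligned reads to mm10 and counted them with plastid, and per the file headers the 5′ ends of footprints were counted in segments without an offset. The deposited values are whole-number counts per CDS, 5′ UTR or 3′ UTR segment, beside which the authors' RPKM values were not used. Counting in this way places ribosomes of the first codons in the 5′ UTR, and a footprint in shared exons counts for every overlapping gene. Whether strand was used is not given in the sources used here. Transcripts were matched to GENCODE M21 (99.3% of 67238), and for each gene the longest transcript was summed.

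Genes passing filterByExpr were tested with edgeR 4.0.16 (R 4.3.3) by its robust quasi-likelihood test with TMM scaling and Benjamini-Hochberg adjustment at 0.05. Each SE is the absolute fold change over the root of F. For length, the lowess trend (span 0.3) of each library against log CDS length was an offset. Interactions used 4 group means. UTR counts were tested with CDS library sizes. The profile used segments of up to 300 nt. DESeq2 1.42.0, edgeR's likelihood ratio test, which the study names, and other alternatives are given in the closing section. The main fit and the fit with the length trend as an offset were tested on simulated counts. The other fits were not.

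Named were the 10 genes of smallest p in each direction (6 with length taken into account) that passed the FDR, moved the same way in all same-numbered pairs and had a mean log2 CPM of at least 4, then Dlg4, Grm5, Eif4g2, up to 4 per list and up to 3 per direction in the other tests. Some genes that the rule names are not reported here. Members and lists were chosen with earlier results of these data known, as were the genes named from the fixed tables of zones and interactions. The study's methods call the replicates of ribosome profiling biological, which the labels do not state. The alignments named in the file headers are marked as freed of duplicates, by a rule not given in the sources used here, so that counts may not be independent molecules.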

Additional observations from a re-analysis of the deposited data

Results flagged for a closer look

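Differences between the ratio of pulldown to input under DHPG and the same ratio in the KCl experiment were tested as interactions and are listed here because they passed. Against resting neurons 336 genes were higher and 540 lower under DHPG. The log2 differences were 1.29 for Mast1, 1.26 for Nup153 and 1.15 for Amer3, and -1.21 for Ncl, -1.17 for Bzw1, -1.05 for Ywhae, -0.80 for Map2 and -0.78 for Fmr1, against 0.71 for Map1b. Against depolarized neurons 2 genes were higher and 1 lower, with 1.61 for Irs2, 1.5 for Pom121 and -1.73 for Msantd4. The DHPG libraries belong to an experiment of their own, so that treatment and experiment cannot be told apart, and against rest silencing may differ as well.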

How the results depend on the processing

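Of 1530 alternative values of 211 results, 1465 kept direction and side of the threshold, or stayed within 1.5 times for counts. Among these results are 130 named genes, mostly chosen for small p in the same data, so that their stability says little about genes in general. Lists were counted only in the direction first called, so that a list that turned appears as a weaker count. The 4967 higher and 4821 lower genes became 3265 and 3197 among genes with a mean log2 CPM of at least 4, where fewer were tested, and 2912 higher against 1.5-fold. Leaving out 1 replicate gave 4495 to 4774 higher and 4447 to 4836 lower, and DESeq2 called 4591 and 4710. Leaving out single libraries gave 4717 to 4925 higher and 4586 to 5002 lower. UTR counts with library sizes of their own gave 458 higher and 144 lower 5′ UTRs and 525 and 595 3′ UTRs.

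Removing the length trend turned the sign of Ank2 (-0.62), Bsn (-0.51), Dst (-0.13) and Grm2 (-0.0099), of which Ank2 and Bsn were called in the new direction and Dst and Grm2 in neither. Grm7, a list member outside the rule for named genes, turned from -0.59 to 0.38 and was called in both fits, and Nrxn2 and Unc13a were among the genes no longer called. Counts of called genes in the direction first counted were then 12 for PSD scaffolds, 12 for group I receptor signalling, 2 for active zone scaffolds, 8 for aminoacyl-tRNA synthetases, 6 for giant ubiquitin ligases, 11 for motors, 10 for chromatin regulators, 6 for adhesion genes, 1 for spectrins, 34 for mitochondrial ribosomal proteins and 38 for respiratory subunits. The correlation of CDS length with the change, 0.619, was 0.474 without a filter on low counts, 0.604 at a mean log2 CPM of at least 4, 0.615 on the transcript of highest count, 0.598, 0.604 and 0.597 in the single pairs and 0.048 with position taken into account.

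Against resting neurons the counts were 138 and 264 with the length trend removed, and 27 to 96 higher and 9 to 123 lower without 1 replicate. Against depolarized neurons they were 148 and 342 by the likelihood ratio test, 18 and 16 with the length trend removed and 6 higher with RLE scaling, and without 1 replicate 0 to 0 in both directions. The deviations of same-numbered inputs and pulldowns had correlations of -0.058, 0.040 and -0.092, and not every sample correlated best with its own number. In the study's methods input and pulldown of a replicate come from one lysate, but no label says that equal numbers mark it. With the replicate number as a block 4916 genes were higher and 4767 lower. The block gave 706 and 1108 against resting and 160 and 434 against depolarized neurons and changed none of the 195 other values. The cause of these shifts was not tested. With 3 libraries a group, no exact test of a single value could pass 0.05, and Acacb and other genes of few counts are imprecise.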

Other observations

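In 6618 genes the CDS position with the largest rise beyond the profile of all genes was sought, after the data were seen. Each position was picked for its rise, so that the rise lies above the profile by choice and was not tested. The steps in single pairs come from the same libraries. Lrp2 came first, with only 61 input counts before its break, followed by Cdk12, Cdk13, Knop1, Prpf4b, Chd9, Smg6 and Pik3c2b. Acaca had rank 17 for its break at 606 nt, which is not at the attachment codon. In Cdk12, a kinase of RNA polymerase II, the log2 ratio was -1.11 up to 1919 nt and 3.18 after it, with steps of 4.40, 4.42 and 4.07 in the 3 pairs. In its relative Cdk13 it went from -0.97 to 2.76 at 1871 nt. In Knop1, a nucleolar protein whose CDS overlaps that of another gene, it went from -1.66 to 1.71 at 1287 nt, in Prpf4b, a splicing kinase, from -1.44 to 2.11 at 1650 nt, and in Smg6, a nuclease of nonsense-mediated decay, from -1.64 to 2.04 at 2255 nt.

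Composition of the CDS went with the change that was left once length was taken into account. Over 7417 genes with a mean log2 CPM of at least 4, the percentage of codons with T in the middle, which encode hydrophobic residues, had a Spearman correlation of 0.440 with it across genes, which share libraries and are not independent. In the fifth of genes with the fewest such codons (median 20.0%) the median log2 change was -0.59, with 251 genes higher and 977 lower. In the fifth with the most (32.2%) it was 0.45, with 951 higher and 272 lower. Codons for aspartate, glutamate or lysine went the other way (-0.310), lysine codons alone had -0.207 and GC content -0.017. Single genes departed from this, as Map1a (18.2% of such codons) and Kmt2a (19.8%) lay 0.99 and 1.35 above the length trend.

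By size alone, the largest rises among genes with a mean log2 CPM of at least 4 were those of Snhg11 (3.51), Dlg4, Acaca and Ankrd12 (92.8, 104 and 102 CPM against 692, 635 and 529 CPM, 2.63). The largest falls were those of 2610002M06Rik (-2.29), the ubiquitin and ribosomal protein fusion gene Rps27a (-2.27) and Ndufb1-ps (-2.21). Snhg11 reached that mean only through its pulldowns, with 3.62 to 4.65 CPM in inputs. Rps27a and 2610002M06Rik reached it through their inputs, with 6.97 to 12.3 and 7.46 to 10.2 CPM in pulldowns.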
